A study of Mus musculus with 8 samples.

Results

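The genes described are 8 that make leukotrienes and prostaglandins, out of 21251 genes tested: Pla2g4a, Alox5, Alox5ap, Lta4h, Ltc4s, Alox15, Ptgs1 and Ptges. They were chosen by name, and every non-control probe annotated to a RefSeq transcript of 1 of them was taken, which gave 9 probes, 2 of them for Ptges. The samples were 4 of ATF3 KO and 4 of WT genotype, all C57BL/6, and each was the Ly6G-positive fraction of bone marrow taken with magnetic beads. ATF3 belongs to the ATF/CREB transcription factors and is induced by stress, and Ly6G is a surface protein of mouse neutrophils. The labels give no age, no number of animals and no account of how the allele was made, so p-values measure only the spread between these samples, which may be technical. The design text has RNA taken at once after the sort, whereas the description of all samples but WT replicate 1 names a week in methylcellulose with 4-OHT, and this conflict was not resolved. Both genotypes were on 1 slide, WT in 1 row of arrays and ATF3 KO in the other, so the row and the genotype cannot be told apart.

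Leukotrienes and prostaglandins are lipid mediators made from arachidonic acid, which a phospholipase frees from membranes. In the leukotriene branch 5-lipoxygenase, helped by its membrane partner FLAP, makes leukotriene A4, and a hydrolase turns this into leukotriene B4, a strong attractant of neutrophils, whereas a synthase joins it to glutathione to give leukotriene C4. In the prostaglandin branch a cyclooxygenase makes prostaglandin H2, from which terminal synthases make prostaglandin E2 and the others. Neutrophils are known for the leukotriene B4 branch.

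All 9 probes were above background on all 8 arrays, and no member passed the test between the genotypes. With limma, 0 of 8 members had an adjusted p under 0.05, where 0.447% of all genes tested did. At an unadjusted p under 0.05 there were 2, Pla2g4a and Lta4h, both lower in ATF3 KO, against 23.9% of all genes (14.5% lower and 9.37% higher). The measured value was lower in ATF3 KO for 6 members and higher for 2, and it was lower for 65.5% of all genes tested, whose median log2 difference was −0.11. Relative to that median, 5 members lay below and 3 above. Only Lta4h had groups that did not overlap, against 10.9% of all genes with all ATF3 KO values below all WT values and 4.13% with all above. Values below are log2 signals relative to the 75th percentile of the same array, so that 0 is a signal at that percentile, and 1 unit is a doubling.

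**Figure D1:**
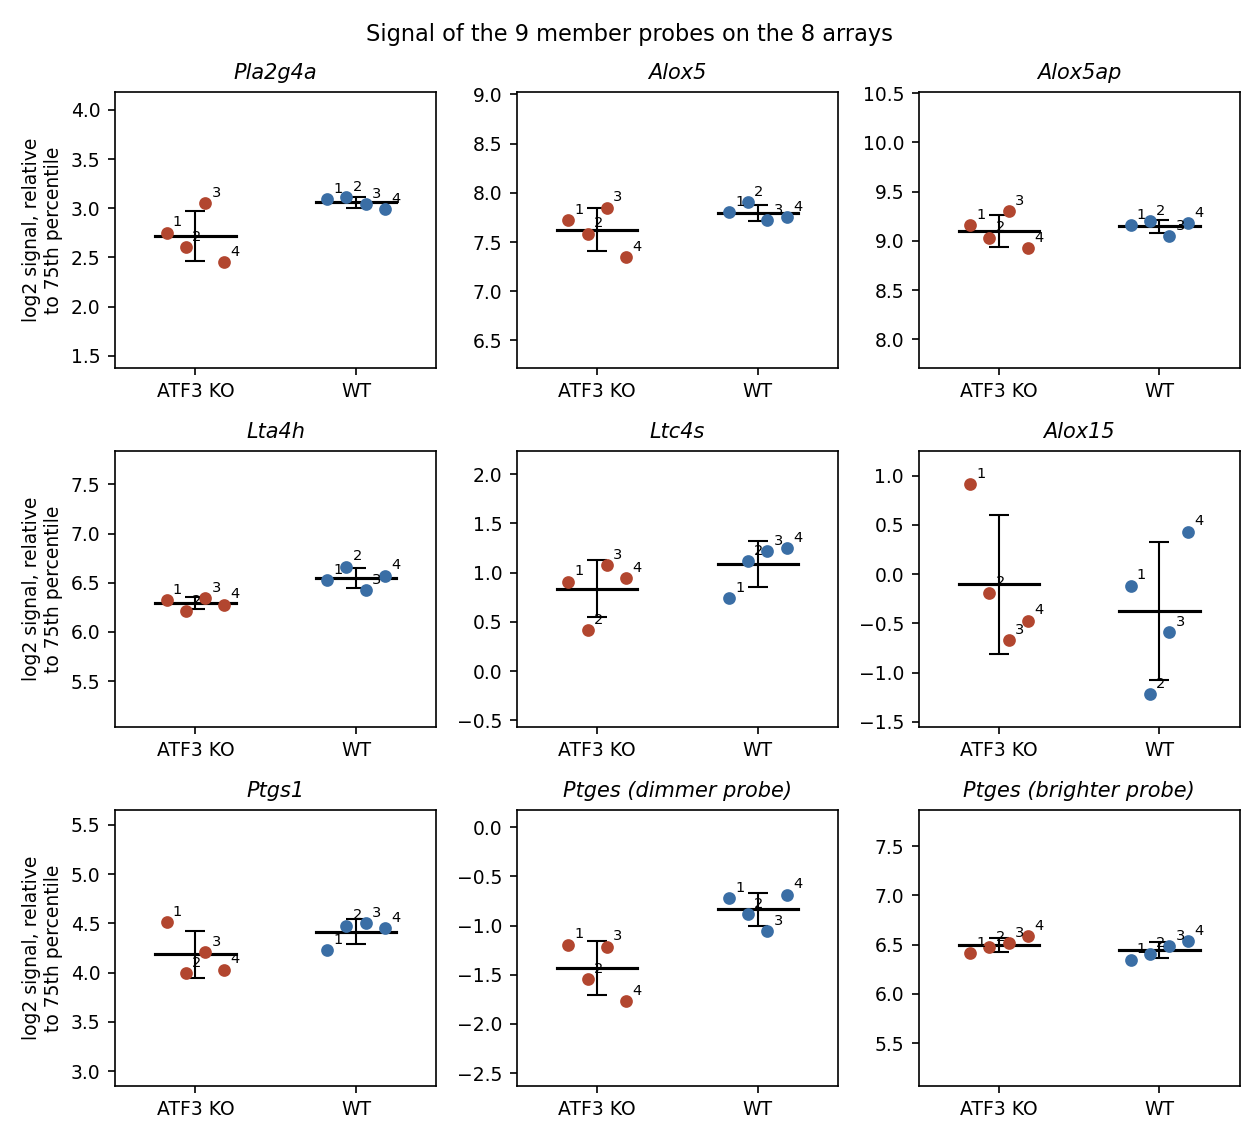
Log2 signal of the 9 probes, relative to each array's 75th percentile, in 4 ATF3 KO and 4 WT arrays. Points are arrays labelled with their replicate number, lines are means and bars SD, and all panels span the same number of log2 units. The groups are apart for Lta4h and for the dimmer probe of Ptges, and Alox15 spreads widely within both groups.

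The 75th percentile of the processed signal lay between 113 and 161 on ATF3 KO arrays and between 151 and 216 on WT arrays, and the share of probes above background between 46.0% and 53.2% on ATF3 KO arrays and between 46.4% and 55.3% on WT arrays. All 13 measured neutrophil markers of 14 were above background on all 8 arrays, and Ly6g itself had no probe with that name. In units of each array's 75th percentile, the summed linear level of these neutrophil markers ran from 12547 to 15183 in ATF3 KO and from 10329 to 13136 in WT. Of the 13, 0 passed with limma. With an unadjusted p under 0.05, 5 were higher and 0 lower, where 9.37% and 14.5% of all genes were. The median log2 difference of the 13 was 0.20, with Mmp9 at −0.27, Mpo at −0.10, Cxcr2 at −0.09 and Elane at −0.05 below 0. The 10 B-lineage markers were all above background on all 8 arrays. Their sum ran from 93.1 to 103 in ATF3 KO and from 44.4 to 67.0 in WT, without overlap. Of the 10, 0 passed with limma, where 0.447% of all genes tested did. At an unadjusted p under 0.05, 8 were higher and 0 lower, where 9.37% and 14.5% of all genes were. The sum of the 12 monocyte and macrophage markers tested of 14, also all above background on all 8 arrays, ran from 287 to 376 in ATF3 KO and from 353 to 418 in WT, with overlap. Of these 12, 1 passed, Vsig4, a macrophage receptor, which was lower in ATF3 KO (−0.92, SE 0.15, limma adjusted p = 0.0481). In that direction 0.0800% of all genes tested passed. The sum of the T and NK markers, 5 tested of 8, ran from 16.9 to 23.8 in ATF3 KO and from 23.1 to 26.9 in WT, with overlap. None of the 5 passed with limma. With an unadjusted p under 0.05, 2 were lower and 0 higher, where 14.5% and 9.37% of all genes were. Alox5, Alox5ap, Lta4h and Ptgs1 are known to be expressed in monocytes too, and the part of these cells in the members' values was not tested. The Atf3 probe read higher in ATF3 KO (1.24 ± 0.27) than in WT (0.73 ± 0.07, SD, n = 4 each; limma adjusted p = 0.121), with no overlap. The sources used here do not place it inside or outside the deletion, so it does not check the labels. All arrays have 1 spot for each member probe, with an error of the spot as the scanner software estimated it of 10% to 16.0%. In such bulk samples fewer cells of a type and less RNA per cell cannot be told apart.

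Release of arachidonic acid was represented by Pla2g4a, the cytosolic phospholipase A2 that supplies most of the arachidonic acid for both branches. Its signal was 2.75, 2.61, 3.05 and 2.45 in ATF3 KO replicates 1 to 4, against 3.09, 3.11, 3.04 and 2.99 in WT replicates 1 to 4. The WT arrays lay close together, and of the ATF3 KO arrays replicate 3 reached the WT level while the other 3 were below every WT array. The log2 difference was −0.34 (SE 0.13, 95% interval −0.64 to −0.05), or 0.788-fold, and did not pass the limma test (adjusted p = 0.173). Relative to the median of all genes it was −0.24. The exact two-sided permutation test gave p = 0.0857 for Pla2g4a. Within an array the difference between the Pla2g4a and Alox5 signals is not moved by scaling arrays to a percentile or a median. This difference averaged −4.91 ± 0.08 in ATF3 KO and −4.74 ± 0.05 in WT (SD, n = 4 each), and the groups did not overlap. That pair was chosen after its values were seen. How many other pairs do not overlap is not given here, so the lack of overlap has no share to be set against.

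The 5-lipoxygenase step was carried by Alox5, the enzyme, and Alox5ap, the gene of FLAP. Alox5 was at 7.72, 7.59, 7.85 and 7.34 in ATF3 KO, against 7.80, 7.90, 7.72 and 7.75 in WT. Only ATF3 KO replicates 2 and 4 lay below every WT array. In processed signal, before any scaling between arrays, Alox5 ran from 18289 to 33953 in ATF3 KO and from 32449 to 51613 in WT. The log2 difference was −0.17 (SE 0.12, 95% interval −0.44 to 0.11, limma adjusted p = 0.379). It was −0.075 without ATF3 KO replicate 4, −0.017 with the percentile over detected probes and −0.30 with normexp. Alox5ap was at 9.16, 9.03, 9.30 and 8.92 in ATF3 KO, against 9.16, 9.20, 9.05 and 9.18 in WT. Its highest and its lowest value were both in ATF3 KO, with all WT arrays in between. The difference of −0.042 (SE 0.11) had a 95% interval of −0.28 to 0.20, or 0.822-fold to 1.15-fold (limma adjusted p = 0.806).

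Lta4h encodes the hydrolase that makes leukotriene B4. Its signal was 6.33, 6.21, 6.35 and 6.28 in ATF3 KO, against 6.53, 6.66, 6.43 and 6.57 in WT. All 4 ATF3 KO arrays were below all 4 WT arrays, with means of 6.29 ± 0.06 in ATF3 KO and 6.55 ± 0.10 in WT (SD, n = 4 each). The SD pooled over both groups, 0.082, was below those of Alox5 (0.163), Alox5ap (0.125) and Ltc4s (0.262), while the WT SD alone was above those of Alox5 and Alox5ap. The log2 difference was −0.26 (SE 0.09, 95% interval −0.47 to −0.05), or 0.837-fold. It did not pass the limma test (adjusted p = 0.162), and an exact two-sided permutation test gave p = 0.0286, the smallest that 4 against 4 allows and one that 15.1% of genes reach by groups that do not overlap. The signal of Lta4h minus that of Alox5ap in the same array averaged −2.81 ± 0.13 in ATF3 KO and −2.60 ± 0.04 in WT (SD, n = 4 each) without overlap. Minus that of Alox5 it averaged −1.34 ± 0.19 in ATF3 KO and −1.25 ± 0.05 in WT (SD, n = 4 each), with overlap. These 2 pairs were also chosen after their values were seen, and the share of other pairs without overlap is not given here.

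Ltc4s encodes leukotriene C4 synthase, an enzyme better known from eosinophils and mast cells than from neutrophils. It was at 0.91, 0.42, 1.07 and 0.95 in ATF3 KO, against 0.74, 1.12, 1.22 and 1.25 in WT. ATF3 KO replicate 2 and WT replicate 1 were the low arrays of their groups, and the groups overlapped. The difference was −0.25 (SE 0.17, 95% interval −0.62 to 0.13, limma adjusted p = 0.356). It was −0.11 without ATF3 KO replicate 2 and −0.36 without WT replicate 1.

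The windows around the annotated starts of the members were searched, on both strands, for the cAMP response element bound by ATF/CREB factors (TGACGTCA), for its shorter core TGACG, for the AP-1 site TGANTCA and for the GC box GGGCGG. Each window runs from 250 bases before to 50 bases after the start in RefSeq (GRCm38.p6), a build other than that of the arrays. There were 7 windows for 6 members, and none for Alox5ap and Alox15. None of the 7 held TGACGTCA, TGACG or TGANTCA, where 1.79%, 20.8% and 7.81% of all 32851 windows did. The GC box was in the windows of Alox5 and Ptges, and in 35.7% of all windows. TGACG overlaps the full element, which contains it. No match says only that these letters are not in these windows. The upstream parts of Lta4h, the member whose groups did not overlap, and of Alox5 are shown with GGGCGG in capitals, of which Lta4h has none. Ptgs2, the inducible cyclooxygenase and not a member, is shown as a contrast over 30 bases from its annotated start, with the match to TGACG, read on the opposite strand, in capitals.
Lta4h, chr10:93453146-93453395, + strand: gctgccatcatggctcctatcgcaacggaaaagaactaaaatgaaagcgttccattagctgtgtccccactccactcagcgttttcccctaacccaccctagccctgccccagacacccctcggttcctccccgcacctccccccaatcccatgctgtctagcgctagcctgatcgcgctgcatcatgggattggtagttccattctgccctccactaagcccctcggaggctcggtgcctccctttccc
Alox5, chr6:116461179-116461428, − strand: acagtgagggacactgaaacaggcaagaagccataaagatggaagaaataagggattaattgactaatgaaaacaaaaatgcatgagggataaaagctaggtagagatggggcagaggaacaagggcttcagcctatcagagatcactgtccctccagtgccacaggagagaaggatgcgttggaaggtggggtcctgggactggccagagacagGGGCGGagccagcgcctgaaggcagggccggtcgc
Ptgs2, chr1:150100031-150100060, + strand: agagtcaccactaCGTCAcgtggagtccgc

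Alox15 encodes a lipoxygenase that acts at other carbons of arachidonic acid and is known from eosinophils and some macrophages. Its signal was 0.92, −0.19, −0.67 and −0.47 in ATF3 KO, against −0.12, −1.22, −0.59 and 0.43 in WT. The groups overlapped between −0.67 and 0.43, and the 8 arrays spanned 4.38-fold. The SD was 0.71 in ATF3 KO and 0.70 in WT (n = 4 each), a within-group spread larger than that of 98.5% of genes tested. For comparison, 3.04% of genes had a smaller spread than the brighter Ptges probe and 3.78% than Lta4h. The difference of 0.27 (SE 0.41) had a 95% interval of −0.64 to 1.18 and an adjusted p of 0.669 with limma. Leaving out ATF3 KO replicate 1 turned it to −0.070, and leaving out WT replicate 2 to −0.011.

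Some eosinophil granule genes had their extremes on the same arrays as Alox15, and others did not. Epx, the eosinophil peroxidase gene, was at 1.33, 0.37, 0.46 and 0.25 in ATF3 KO, against 0.39, −0.55, −0.07 and 0.10 in WT. Prg2, the major basic protein gene, was at 5.07, 4.29, 4.44 and 4.15 in ATF3 KO, against 4.11, 3.21, 3.67 and 4.10 in WT. Alox15, Epx, Prg2, Prg3 and Ear6 all had their highest value in ATF3 KO replicate 1 and their lowest in WT replicate 2. The granule ribonuclease genes Ear1 and Ear2, from a family of close copies that probes may not tell apart, were also highest in ATF3 KO replicate 1 but lowest in ATF3 KO replicate 4, with differences of 0.07 and −0.016. WT replicate 4 was the second highest array for Alox15, whereas Epx and Prg2 were lower there than in WT replicate 1 and in all ATF3 KO arrays. For Prg2 these WT arrays were nearly equal, at 4.10 and 4.11. Ear6 was higher in WT replicate 4 (2.57) than in the other WT arrays and in ATF3 KO replicate 4 (2.47). The surface receptors Siglecf and Ccr3 were not highest in ATF3 KO replicate 1, and their differences were −0.42 (limma adjusted p = 0.165) and −0.24 (0.298). Of the 18 markers of eosinophils, basophils and mast cells 17 were tested and 15 were above background on all 8 arrays. The exceptions were the mast cell and basophil genes Cpa3, Fcer1a and Ms4a2, the last of which was not tested. The summed linear level of the 17, in units of the 75th percentile, ran from 531 to 652 in ATF3 KO and from 514 to 566 in WT. Its brightest gene was Hdc, the histamine-forming enzyme, at a log2 signal of 8.20 to 8.64 in ATF3 KO and of 8.18 to 8.23 in WT. Hdc weighed most in that sum, which therefore says little about dimmer genes such as Epx and Prg3. Of the 17, 1 passed with limma, Gata2, a transcription factor of these cells, which was higher in ATF3 KO (0.75, SE 0.13, adjusted p = 0.0495). In that direction 0.367% of all genes tested passed. Gata2, Prg2, Prg3 and Il5ra were higher in ATF3 KO without overlap, and Kit was lower without overlap, where 4.13% and 10.9% of all genes were. The part of these cells in the Alox15 and Ltc4s signals was not tested.

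**Figure D2:**
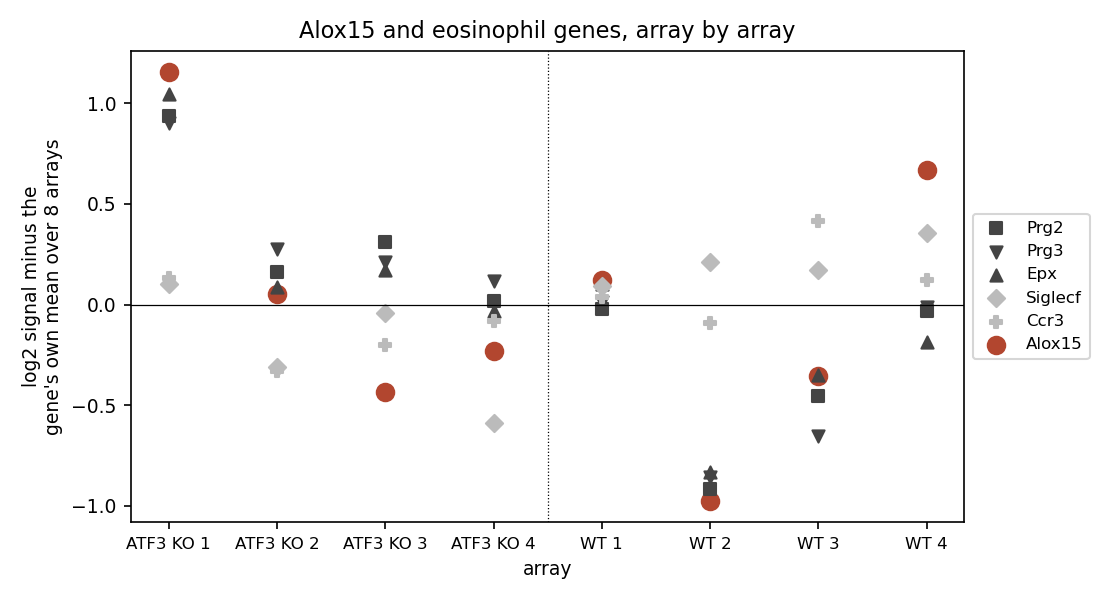
Log2 signal of Alox15 (large circles), of 3 eosinophil granule genes, Prg2, Prg3 and Epx (dark marks), and of the eosinophil receptors Siglecf and Ccr3 (pale marks), each minus its own mean over the 8 arrays. Alox15 and these granule genes share the highest array, ATF3 KO replicate 1, and the lowest, WT replicate 2.

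The prostaglandin branch began with Ptgs1, the constitutive cyclooxygenase. It was at 4.51, 3.99, 4.21 and 4.03 in ATF3 KO, against 4.23, 4.48, 4.50 and 4.45 in WT. ATF3 KO replicate 1 was the highest of the 8 arrays and the other 3 ATF3 KO arrays were below every WT array. The difference was −0.23 (SE 0.13, 95% interval −0.53 to 0.07, limma adjusted p = 0.294). Ptgs1 is also a platelet gene, and the summed level of the 12 megakaryocyte and platelet markers, all above background on all 8 arrays, ran from 59.2 to 115 in ATF3 KO and from 67.8 to 86.0 in WT. That sum was highest in ATF3 KO replicate 4, where Ptgs1 was low, and next highest in ATF3 KO replicate 1, where Ptgs1 was highest. The median log2 difference of the 12 was 0.62. At an unadjusted p under 0.05, 5 were higher and 1 lower, where 9.37% and 14.5% of all genes were. The lower one was Itgb3 (−0.46, SE 0.11, limma adjusted p = 0.106, no overlap). It had the highest mean of the 12 in both groups, so it weighed heavily in the sum. The part of platelets in the Ptgs1 signal was not tested.

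Ptges encodes the inducible synthase of prostaglandin E2 and had 2 probes annotated to the same transcript, which disagreed. The brighter probe, which stands for the gene, was at 6.41, 6.48, 6.51 and 6.59 in ATF3 KO, against 6.35, 6.41, 6.48 and 6.54 in WT. Its difference was 0.052 (SE 0.092, 95% interval −0.15 to 0.26, limma adjusted p = 0.720). The dimmer probe was at −1.19, −1.55, −1.22 and −1.77 in ATF3 KO, against −0.72, −0.88, −1.05 and −0.69 in WT. All its ATF3 KO values lay below all its WT values, whereas those of the brighter probe overlapped. The dimmer probe's difference was −0.60 (SE 0.15), or 0.662-fold, with an adjusted p of 0.118 when limma was run on every probe. It was −0.25 with normexp and −0.40 in the deposited log2 values. In 18 alternatives it was lower in ATF3 KO in all 18 and passed the threshold in 0. The other filters, trend and robust variances and the replicate block left it unchanged, so its direction there was fixed in advance. The signal of the dimmer minus that of the brighter probe, which scaling to a percentile or a median cannot move, averaged −7.93 ± 0.34 in ATF3 KO and −7.28 ± 0.20 in WT (SD, n = 4 each) and did not overlap. This contrast of probes was made after their values were seen, and the share of such contrasts without overlap is not given here. The differences of the 2 probes were unequal, and which of them follows the transcript was not tested.

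The other genes of the pathway came from a list of 67 arranged by role, of which 59 were tested and 8 did not pass the filter on dim probes. With limma 0 of the 59 passed, 0 higher and 0 lower, and at an unadjusted p under 0.05 there were 17 lower and 4 higher, where 14.5% and 9.37% of all genes were. The 8 not tested were Pla2g5, Dpep2, Alox8, Ltb4r2, Oxgr1, Ptger3, Ptgdr2 and Ptgfr. The median log2 difference of the 59 was −0.21, against −0.11 over all genes tested, and 11 were lower without overlap and 1 higher, where 10.9% and 4.13% of all genes were. The role with the lowest median was transport and breakdown, at −0.32, where 6 of 10 genes were lower at an unadjusted p under 0.05 and 0 higher. For prostanoid synthesis it was −0.23, with 4 of 12 lower and 0 higher, and for leukotriene synthesis −0.17, with 2 of 11 lower and 0 higher. Receptors had a median of −0.13, with 2 of 11 lower and 0 higher. Release had −0.09, with 3 of 10 lower and 3 higher, and the other lipoxygenases 0.24, with 0 of 5 lower and 1 higher. Without the members, 51 genes were tested, of which 15 were lower and 4 higher by that criterion, with a median of −0.21.

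Among the enzymes next to the members, Ptgs2 was at 1.59, 1.21, 0.99 and 1.12 in ATF3 KO, against 1.69, 1.68, 1.66 and 1.80 in WT. All ATF3 KO arrays were below all WT arrays, with a difference of −0.48 (SE 0.13, limma adjusted p = 0.123). Ptgs2 and Pla2g4a are neighbours on chromosome 1 in GRCm38.p6, with 0 protein-coding genes between them, and Atf3 is on the same chromosome. Their distance from Atf3 was not measured, and the part of location in their differences was not tested. Prxl2b, a prostaglandin F synthase, differed by −0.51 (SE 0.14, adjusted p = 0.127) and passed in 1 of the 19 alternatives, normexp. Hpgds, the prostaglandin D synthase of blood cells, differed by −0.48 (SE 0.15, adjusted p = 0.144). Dpep1, a dipeptidase that turns leukotriene D4 into leukotriene E4, differed by −0.59 (SE 0.16, adjusted p = 0.118), and Ggt1, which makes leukotriene D4, by −0.42 (SE 0.19, adjusted p = 0.219). Hpgds and Dpep1 were dim, though above background on all arrays. Their means were −1.45 and −2.42 in ATF3 KO, against −0.97 and −1.84 in WT.

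Phospholipases outside the members went both ways in measured value. Pla2g10, a secreted phospholipase A2, differed by 0.77 (SE 0.23, adjusted p = 0.133), Pla2g15, the lysosomal one, by −0.40 (SE 0.14, 0.156) and Pla2g7, which breaks down platelet-activating factor, by −0.26 (SE 0.09, 0.157). Pla2g10 was dim, with means of −1.86 in ATF3 KO and −2.64 in WT, though above background on all arrays. Of the lipoxygenases, Alox12, the platelet enzyme, was at 1.16, 0.05, 0.63 and 1.42 in ATF3 KO, against 0.34, 0.29, 0.21 and −0.07 in WT (difference 0.63, SE 0.27, adjusted p = 0.197). The platelet gene Pf4 was at 4.68, 3.71, 4.31 and 5.09 in ATF3 KO, against 3.93, 4.27, 3.81 and 3.66 in WT. Alox12 and Pf4 were both highest in ATF3 KO replicate 4 and next highest in replicate 1, and the part of platelets was not tested. Alox12e differed by 0.24 (adjusted p = 0.431), and Aloxe3, above background on 2 ATF3 KO and 3 WT arrays, by −0.60 (0.27).

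Hpgd, which starts the breakdown of prostaglandins, differed by −0.45 (SE 0.12, limma adjusted p = 0.114), the lowest adjusted p of the 59. Ptgr1, which acts on leukotriene B4 and on prostaglandins, differed by −0.27 (SE 0.10, 0.159), and the epoxide hydrolase Ephx1 by −0.32 (SE 0.12, 0.167). Of the receptors, Ptger4, the prostaglandin E2 receptor EP4, differed by −0.33 (SE 0.11, 0.151), the lipid-sensing receptor Gpr132 by −0.25 (SE 0.10, 0.178) and the prostacyclin receptor Ptgir by −0.21 (SE 0.10, 0.221).

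**Figure D3:**
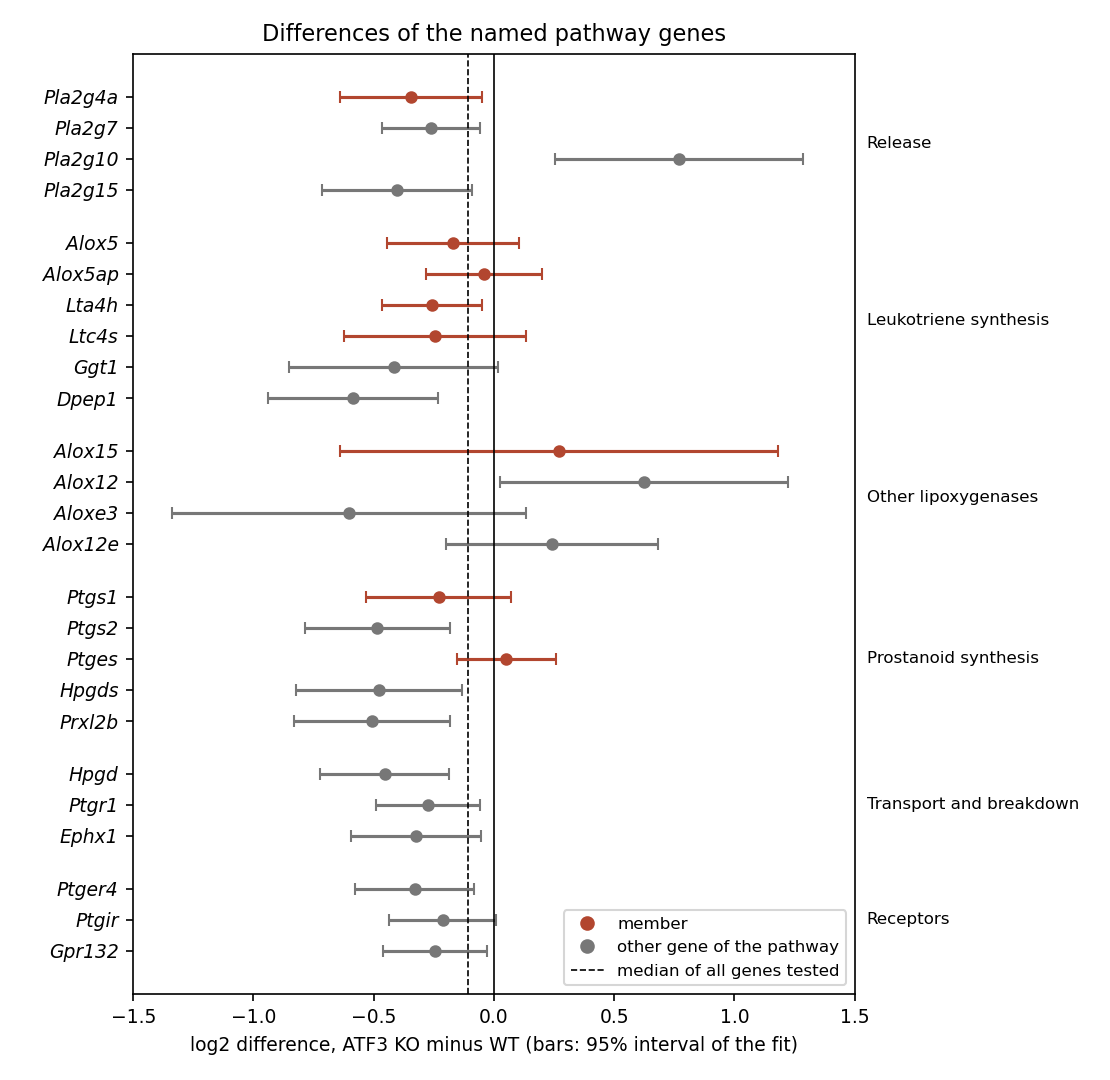
Log2 difference, ATF3 KO minus WT, of the 8 members (red) and of the other named genes of the pathway (grey), grouped by role, with the 95% interval of the limma fit. The dashed line is the median of all genes tested, −0.11. The intervals of Pla2g4a and Lta4h lie below 0, those of the other 6 members include it, and none of the genes passed after adjustment over all genes.

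How the arrays were put on a common scale shifted the members' differences. When the percentile covered only detected probes, the median of all genes was 0.04, Lta4h was at −0.11, Pla2g4a at −0.19 and Alox5ap at 0.11, and with median scaling the median of all genes was −0.18, Lta4h at −0.33, Pla2g4a at −0.42 and Ptges at −0.024. Quantile normalization gave −0.20 for Pla2g4a, −0.15 for Lta4h, −0.16 for Ltc4s, −0.085 for Ptgs1 and 0.16 for Ptges. In the deposited log2 values Lta4h was at −0.13, Ltc4s at −0.12, Alox5ap at −0.17 and Ptgs1 at 0.005. The measured values of Pla2g4a, Alox5, Lta4h and Ltc4s were below 0 in all 19 alternatives. Those of Pla2g4a, Lta4h and Ltc4s were below the median of all genes in all 19. Median scaling and the percentile over detected probes shift all genes of an array alike. A gene's place relative to that median was therefore fixed in advance under both. The other filters, testing every probe, trend and robust variances and the replicate block left each member's difference unchanged. Its sign in those alternatives was therefore fixed in advance.

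**Figure D4:**
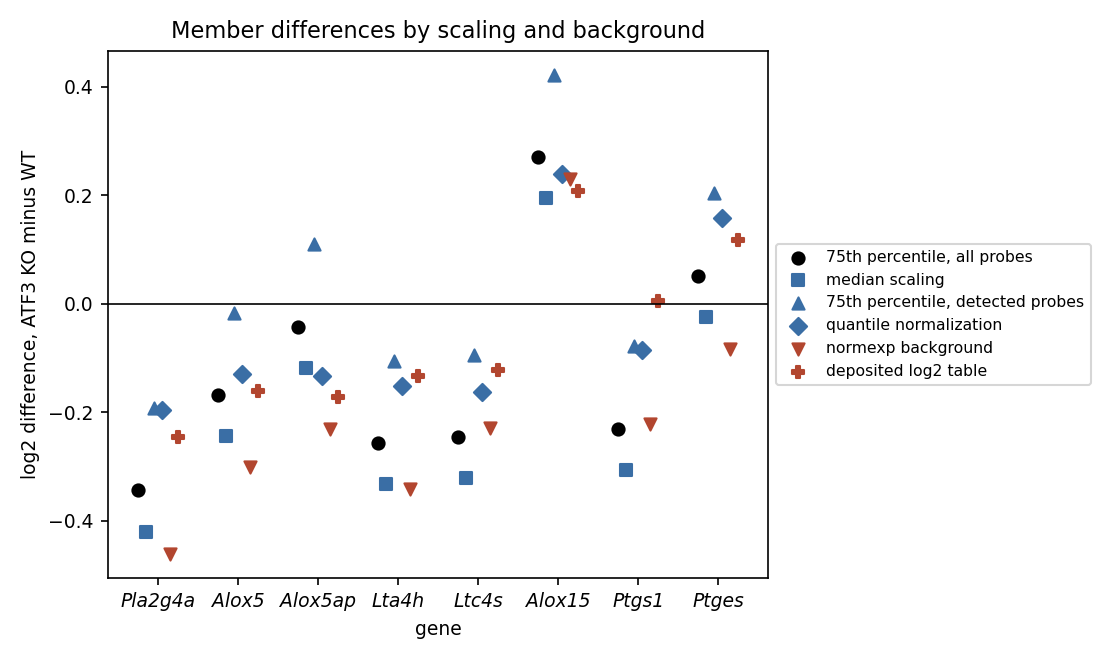
Log2 difference, ATF3 KO minus WT, of the 8 members under 6 ways of correcting background and scaling arrays. Pla2g4a, Alox5, Lta4h and Ltc4s stay below 0, Alox15 above it, and Alox5ap, Ptgs1 and Ptges lie on both sides.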

How the data were processed

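Samples were hybridised in a single colour (Cy3, per the labels) to Agilent arrays. Feature Extraction quantified the spots. Its version is 10.9.1.1 in the file headers, while the submitters' processing notes name 10.10. The deposited processed signal is an intensity on a linear scale, background-subtracted and detrended within the array per the file headers, and not scaled between arrays. The deposited series table holds log2 values whose scaling and centring are not stated. Its columns each matched their own array most closely (r from 0.998 to 1 across features, column medians 6.15 to 6.17), and it served as an alternative.

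Control spots and outlier spots (98 to 159 per array) were left out, and none was saturated. Log2 processed signals were set against the 75th percentile of all 55681 probes of the array. RefSeq accessions (GRCm38.p6) named 27229 probes. A probe had to be above background on 4 or more arrays, which kept 27948, and the brightest stood for its gene. Genotypes were compared with limma 3.58.1 in R 4.3.3 (lmFit, eBayes) over 21251 genes at a Benjamini-Hochberg adjusted p under 0.05, and single values with two-sided exact permutation tests. On simulated data of 21234 genes with 200 changed, limma recovered 38% of 1.5-fold and 78% of 2-fold changes, and 10 of its 165 calls were false. The simulated noise was independent between genes, which that of real arrays need not be, so recovery on these arrays may differ. Changes under 1.5-fold were not simulated. The number of arrays limits the precision. No arrays were identical.

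The members, pathway list and marker lists were chosen with earlier results of these data known. Named genes are the members, Atf3, Ptgs2 and the 3 tested genes of smallest p in each role; marker genes were named for their array pattern after values were seen. Normexp was run on the median signal and the local median background, with an offset of 50. Alternatives were normexp, quantile normalization, 2 other scalings, 2 other filters, every probe tested, 2 variance models, a replicate block, the deposited table and leaving out each array.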

Additional observations from a re-analysis of the deposited data

Results flagged for a closer look

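A lone highest or lowest array was looked for in each group of 4 by Dixon's criterion, which chance meets in about 1 group in 20. Over the members' probes and the other tested genes of the pathway, 120 groups were checked and 3 met it, none of them for a member. Ggt1 had its highest WT value, 0.60, in replicate 2, against 0.39 to 0.40 in the other WT arrays. Hpgd had its lowest ATF3 KO value, 1.79, in replicate 2, against 2.09 to 2.14 in the other ATF3 KO arrays. Ptgis, which is not among the named genes, was the other.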

How the results depend on the processing

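No member passed the threshold in any of the 19 alternatives, and of 152 member values 145 kept their direction and 7 did not. The 145 include values from the other filters, every probe tested, trend and robust variances and the replicate block. Those alternatives left each member's difference unchanged, so no direction could turn there. With normexp Ptges was at −0.084, and with median scaling at −0.024. Alox5ap was at 0.11 with the percentile over detected probes, and leaving out 1 array moved it between −0.11 and 0.017 (the higher value without ATF3 KO replicate 4). Ptgs1 was at 0.005 in the deposited log2 table. Leaving out 1 array moved Alox15 between −0.070 (without ATF3 KO replicate 1) and 0.54, with −0.011 without WT replicate 2. The cause was not tested.

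The count of all genes past the threshold, 95 (78 higher and 17 lower), was 236 with normexp (152 and 84), 31 with quantile normalization (22 and 9), 217 with median scaling (176 and 41), 44 with the percentile over detected probes (35 and 9), 10 without a filter (4 and 6), 58 with every probe tested (44 and 14), 192 with trend and robust variances (136 and 56), 148 with array weights (112 and 36) and 150 with the deposited log2 table (110 and 40). Leaving out 1 array gave 9 to 234. In the pathway list 1 gene passed with normexp, Prxl2b, and 0 in the other alternatives.

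Same-numbered samples deviated together in numbers 1 and 4 (r = 0.19 and 0.18, across genes) and oppositely in 2 and 3 (−0.13 and −0.27), and 0 of 4 correlated best with its own number, so the numbers were not taken as a pairing. With the replicate number as a block, 72 genes passed (61 higher and 11 lower) and 0 members, with a difference of −0.26 for Lta4h and −0.34 for Pla2g4a.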

Other observations

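Tbxas1, the thromboxane synthase gene, had the lowest log2 difference of the pathway list, −0.63, and was singled out after its values were seen. It was at 2.23, 3.83, 4.12 and 3.76 in ATF3 KO, against 4.02, 4.24, 4.22 and 3.97 in WT. ATF3 KO replicate 1 was far below the other 7 arrays, and without it the difference was −0.21.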
